A study of Mus musculus with 6 samples.

Results

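Nodal, Cripto, Lefty and Activin receptor genes were followed across 3 sorted fractions of mouse embryonic stem cell (ESC) cultures. The members were the rows of the deposited count table whose gene symbol was Nodal, Tdgf1 (which encodes Cripto), Lefty1, Lefty2, Gdf3, Pcsk6, Furin, Acvr1b, Acvr2b or Pmepa1. Each symbol matched 1 row, which gave 10 genes of the 38561 in the table, and all 10 had enough counts to be tested. The fractions were PDGFRa-only (PECAM1minPDGFRaplus in the labels), double-positive (PECAM1plusPDGFRaplus) and PECAM1-only (PECAM1plusPDGFRamin), named by the presence of the endothelial and stem cell adhesion protein PECAM1 and of the growth factor receptor PDGFRa on the cell surface. Each fraction had 2 libraries, whose titles end in Exp1 and Exp2 and which are called replicates 1 and 2 here. All 6 came from 129X1/SvJ x 129S1/Sv cells at passages 13 to 17, grown without feeder cells on gelatin with 20% serum replacement and 1000 U/ml of leukemia inhibitory factor. RNA of 100000 sorted events was amplified before sequencing. The labels describe the cultures as undifferentiated and name neither the line nor the number of clones, and they do not say whether replicates were separate cultures, so p-values measure only the spread between these libraries.

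Nodal is a secreted ligand of the TGF-beta superfamily that acts in the pluripotent epiblast of the early mouse embryo. It is made as a precursor that the proprotein convertases Furin and Pcsk6 cleave, and it signals through type I and type II activin receptors together with the EGF-CFC co-receptor Cripto. The receptors phosphorylate SMAD2 and SMAD3, which switch on target genes. Lefty proteins, which are among these targets, block the pathway outside the cell. In the mouse embryo both convertases are known to be supplied to the epiblast by neighbouring extraembryonic cells.

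The libraries held 4809661 to 7273669 counts. Levels are given as CPM, the counts of a gene relative to library size, scaled by the trimmed mean of M-values, so that 1 CPM stood for 4.45 to 6.87 reads. The summed level of 6 pluripotency markers was 106.7 to 149.3 CPM in PDGFRa-only, 309.7 to 381.1 CPM in double-positive and 1007 to 1014 CPM in PECAM1-only libraries. Its members differed: Pou5f1 made up most of the PDGFRa-only sum (96.98 and 56.5 CPM, against 143.7 and 132.3 CPM in PECAM1-only), while Nanog, Sox2 and Fgf4 lay between 0 and 1.36 CPM in PDGFRa-only and between 94.33 and 228 CPM in PECAM1-only libraries. Primitive endoderm was read from 7 markers: Gata6, Gata4, Sox17, Sox7, Dab2, Cubn and Pdgfra. Their sum was 9620 to 10790 CPM, 7276 to 7847 CPM and 20.67 to 23.05 CPM in the same order of fractions. Cubn (5111 and 6077 CPM) and Dab2 (2613 and 2931 CPM) made up most of the PDGFRa-only sum. All 7 were higher in the PDGFRa-only than in the PECAM1-only fraction, where 30.1% of all tested genes were. Pdgfra is the gene of a sort marker, so its difference is no separate evidence of cell type. Of 4 visceral endoderm markers, Hnf4a and Ttr were tested, and both were higher in PDGFRa-only than in PECAM1-only cells. The sum of the 4 was 86.66 to 95.63, 61.84 to 72.44 and 13.68 to 16.62 CPM in the same order. Of 5 anterior visceral endoderm markers, Hhex and Dkk1 were higher in PDGFRa-only cells. Otx2 went the other way, at 0.225 and 0.755 CPM in PDGFRa-only and 113.1 and 83.9 CPM in PECAM1-only libraries. Cer1 and Lhx1 were not tested. Of 5 gastrulating mesendoderm markers only Eomes was abundant enough to be tested, and their sum stayed between 4.53 and 11.21 CPM in every library. Of 5 markers of endothelium and blood, Emcn and Ptprc had 0 counts in all 6 libraries and Tie1 had 2 counts in 1 of them. Cdh5 alone was higher in PDGFRa-positive cells (116.7 and 61.03 CPM in PDGFRa-only, 64.04 and 44.59 CPM in double-positive, 0 and 0.157 CPM in PECAM1-only libraries), and Tek had 9.43 and 10.42, 10.39 and 9.70, and 13.83 and 12.39 CPM. In such bulk fractions fewer cells that express a gene and less RNA of it per cell cannot be told apart. The part of the change in cell type composition in the values below was not tested.

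All 10 genes differed between PDGFRa-only and PECAM1-only cells, 7 of them lower and 3 higher in the PDGFRa-only fraction (edgeR quasi-likelihood test, Benjamini-Hochberg adjusted p below 0.05 over all 13909 tested genes). Of all tested genes 59.0% passed this threshold, 28.8% lower and 30.1% higher. The count of 10 was 9 with library size as the only scaling, 9 with DESeq2 and 9 with the authors' RPKM table. Some fits without 1 library also lost a call. Nodal, Tdgf1, Gdf3, Lefty1, Lefty2, Acvr2b and Pcsk6 were lower, and Furin, Pmepa1 and Acvr1b were higher. Between the double-positive and PECAM1-only fractions 6 of the 10 passed, against 38.2% of all tested genes: Nodal, Tdgf1 and Gdf3 were lower (16.4% of all tested genes) and Furin, Pmepa1 and Acvr1b were higher (21.8%). The count of 6 was 7 with library size as the only scaling, 5 with DESeq2 and 7 with the authors' RPKM table. Between the PDGFRa-only and double-positive fractions 7 of the 10 passed, against 17.6% of all tested genes. This count was 4 without PDGFRa-only replicate 1, 4 without double-positive replicate 1, 3 without double-positive replicate 2 and 3 with the authors' RPKM table. Nodal, Tdgf1, Gdf3, Lefty1 and Acvr2b were lower (11.7%), and Furin and Pmepa1 were higher (5.94%). The 2 libraries of a fraction never overlapped with those of another fraction for any of the 10 genes, which was true of 77.8%, 71.7% and 57.5% of all tested genes in the 3 comparisons. The double-positive mean in CPM lay between the other 2 fractions for every member. The share of all tested genes for which this held was not computed. In the authors' RPKM values Acvr1b was instead highest in double-positive libraries (18.03 and 17.96, against 16.22 and 16.58 in PDGFRa-only and 12.38 and 15.6 in PECAM1-only).

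The median log2 fold change of the 10 genes was -1.32, -0.41 and -1.0 in these 3 comparisons, against 0.0059, -0.0082 and -7.3e-05 over all tested genes. The comparisons share libraries, and the members were assembled with earlier results of these data known, so these figures describe the members and test nothing. With library size as the only scaling no member changed direction, and the calls over all genes between PDGFRa-only and PECAM1-only were 3227 higher and 5318 lower, against 4193 and 4012 with the scaling used. Between double-positive and PECAM1-only they were 2421 higher and 3658 lower, against 3031 and 2288. Between PDGFRa-only and double-positive they were 528 higher and 1878 lower, against 826 and 1624. Upper-quartile scaling gave 2528 higher and 3306 lower between double-positive and PECAM1-only.

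**Figure D1:**
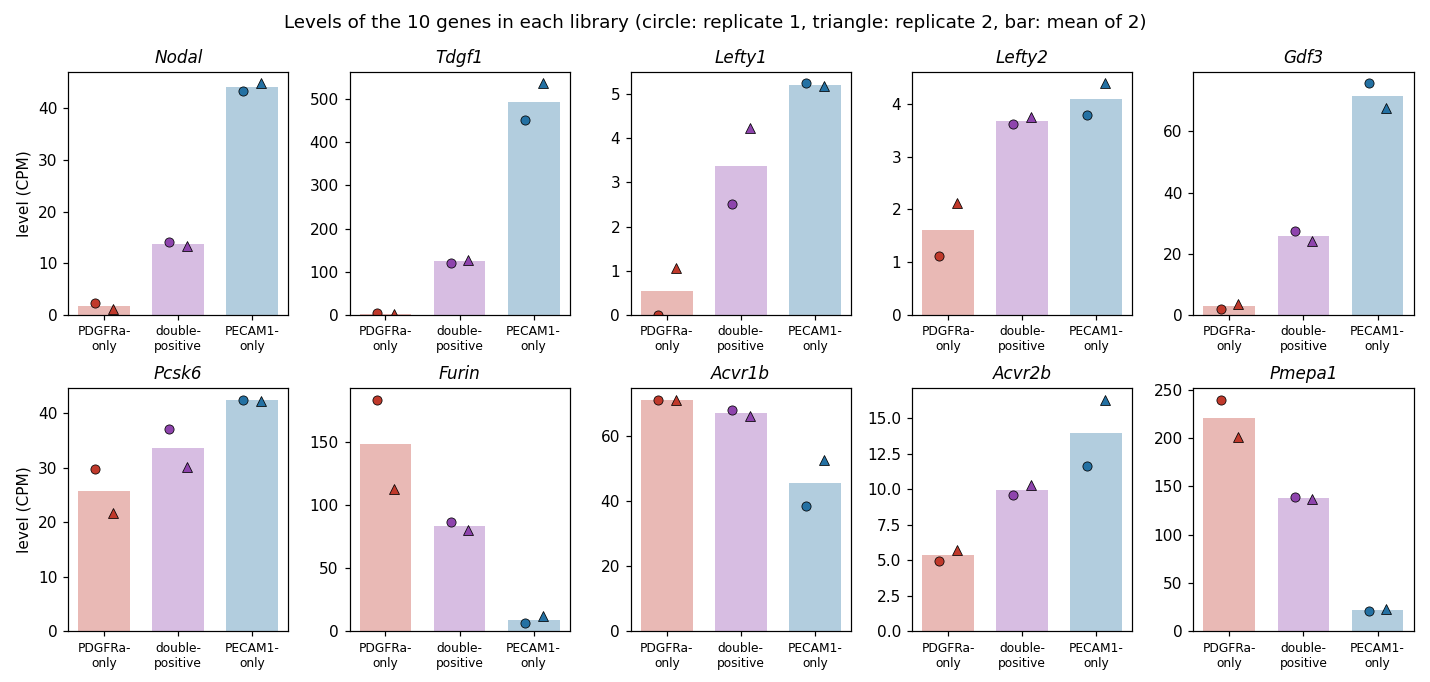
Level of each of the 10 genes in CPM (vertical axis, from 0, a separate scale per gene) in the PDGFRa-only, double-positive and PECAM1-only fractions; points are libraries and bars the mean of 2. Nodal, Tdgf1, Gdf3, Lefty1, Lefty2, Pcsk6 and Acvr2b are highest in the PECAM1-only fraction, Furin, Acvr1b and Pmepa1 in the PDGFRa-only fraction.

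Among the ligands, Nodal (ENSMUSG00000037171, GRCm38 chromosome 10, 61417972 to 61425338, plus strand, 3 exons) had 2.25 and 1.06 CPM in the PDGFRa-only libraries, 14.2 and 13.3 CPM in the double-positive libraries and 43.4 and 44.9 CPM in the PECAM1-only libraries. The 3 fractions formed separate steps. The PDGFRa-only values rested on 10 and 7 counts. The level was 28.1-fold lower in PDGFRa-only than in PECAM1-only cells (log2 fold change -4.81, SE 0.31, adjusted p = 3.22e-11, edgeR), and the double-positive fraction carried 31.1% of the PECAM1-only level (log2 fold change -1.68, SE 0.22, adjusted p = 3.6e-06, edgeR). Between PDGFRa-only and double-positive cells the log2 fold change was -3.13 (SE 0.34, adjusted p = 1.04e-06, edgeR).

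Gdf3 (ENSMUSG00000030117, chromosome 6, 122605403 to 122610087, minus strand) encodes a related ligand that also works with Cripto. It had 2.02 and 3.48 CPM in PDGFRa-only, 27.5 and 24.3 CPM in double-positive and 75.7 and 67.6 CPM in PECAM1-only libraries. Its steps were close in proportion to those of Nodal: the PDGFRa-only mean was 3.84% and the double-positive mean 36.1% of the PECAM1-only mean, where Nodal had 3.74% and 31.1%. The log2 fold changes were -4.64 (SE 0.26, adjusted p = 4.1e-12) between PDGFRa-only and PECAM1-only, -1.47 (SE 0.20, adjusted p = 4.17e-06) between double-positive and PECAM1-only, and -3.17 (SE 0.28, adjusted p = 4.72e-08) between PDGFRa-only and double-positive, all by edgeR.

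Tdgf1 (ENSMUSG00000032494, chromosome 9, 110939603 to 110946158, minus strand), the gene of the co-receptor Cripto, had the largest fold change of the 10. It had 3.59 and 1.81 CPM in the PDGFRa-only libraries, 121.2 and 126.6 CPM in the double-positive libraries and 451.6 and 536.3 CPM in the PECAM1-only libraries. Each fraction stood far from the next. The PDGFRa-only level was 192-fold lower than the PECAM1-only level (log2 fold change -7.58, SE 0.26, adjusted p = 2.19e-15, edgeR). The double-positive fraction held 25.1% of the PECAM1-only level (log2 fold change -1.995, SE 0.17, adjusted p = 7.18e-09, edgeR). The PDGFRa-only level was 48.1-fold lower than the double-positive level (log2 fold change -5.59, SE 0.26, adjusted p = 1.41e-11, edgeR).

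The count of Tdgf1 is uncertain in size because the mouse genome holds near copies of it. Tdgf1-ps1 (ENSMUSG00000095834, chromosome 16, 3730510 to 3731022, plus strand) is annotated as a processed pseudogene, and over 512 aligned bases it was identical to the coding sequence of Tdgf1 at 506, or 98.8%. The longest stretch without a difference was 154 bases. The following 120 bases of the coding strand, 345 to 464 counted from the start codon, hold the most differences of any such window. The differing bases are in capitals and show how few bases tell the pair apart:
Tdgf1: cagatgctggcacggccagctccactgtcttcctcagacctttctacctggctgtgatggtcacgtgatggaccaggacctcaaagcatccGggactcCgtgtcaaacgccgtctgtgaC
Tdgf1-ps1: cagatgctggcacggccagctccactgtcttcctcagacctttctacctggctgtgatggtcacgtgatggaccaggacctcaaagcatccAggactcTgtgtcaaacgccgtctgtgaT
A copy that differs more, Tdgf1-ps2 (chromosome 17, 12189921 to 12190456), matched at 90.5% of its aligned positions and lies inside the gene Agpat4 on the same strand. A sequence search also found the processed pseudogene Gm13455, at 91.1% over 438 aligned bases, which had 0 counts.

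Tdgf1-ps1 took 1 and 13 counts in the PDGFRa-only libraries, 603 and 519 in the double-positive libraries and 1989 and 2175 in the PECAM1-only libraries, beside 16 and 12, 770 and 809, and 3102 and 3420 counts of Tdgf1. For every 100 counts of Tdgf1 there were therefore 78.3 and 64.2 counts of the pseudogene in the double-positive and 64.1 and 63.6 in the PECAM1-only libraries. In the PDGFRa-only libraries that figure was 6.25 and 108 and rested on few counts. Tdgf1-ps1 fell with its parent gene, with a log2 fold change of -7.96 (SE 0.32, adjusted p = 2.61e-14, edgeR) between PDGFRa-only and PECAM1-only. Tdgf1-ps2 did not share this pattern, with 6 and 13, 14 and 16, and 4 and 1 counts. The counts do not show from which of these loci a read came. With the 3 loci summed, the log2 fold change of Tdgf1 was -7.20 between PDGFRa-only and PECAM1-only (adjusted p = 4.73e-16, edgeR) and -1.92 between double-positive and PECAM1-only (adjusted p = 3.67e-09, edgeR), a choice made after seeing the data.

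**Figure D2:**
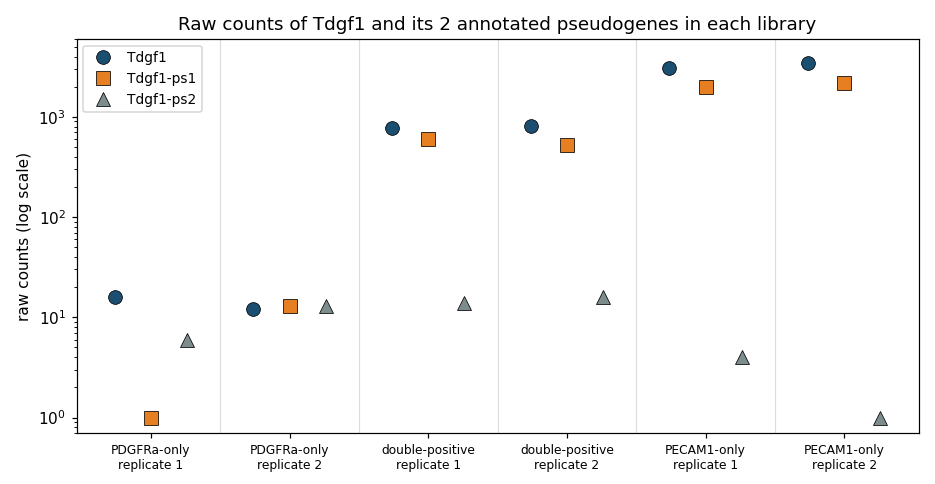
Raw counts (vertical axis, log scale) of Tdgf1, Tdgf1-ps1 and Tdgf1-ps2 in each of the 6 libraries. Tdgf1-ps1 lies just under Tdgf1 in the 4 double-positive and PECAM1-only libraries, while Tdgf1-ps2 stays between 1 and 16 counts.

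The 2 convertase genes went in opposite directions. Furin (ENSMUSG00000030530, chromosome 7, 80388585 to 80405436, minus strand) had 183.9 and 112.8 CPM in PDGFRa-only, 86.7 and 80.6 CPM in double-positive and 6.11 and 11.6 CPM in PECAM1-only libraries. It was high in all 4 libraries of PDGFRa-positive cells and low in both others. The level was 16.8-fold higher in PDGFRa-only than in PECAM1-only cells (log2 fold change 4.07, SE 0.27, adjusted p = 2.04e-10, edgeR) and 9.48-fold higher in double-positive than in PECAM1-only cells (log2 fold change 3.24, SE 0.27, adjusted p = 1.15e-08, edgeR). The smaller difference of PDGFRa-only over double-positive cells (log2 fold change 0.82, SE 0.22, adjusted p = 0.0159, edgeR) no longer passed without PDGFRa-only replicate 1 (0.44, at an adjusted p of 0.133) or either double-positive library (adjusted p of 0.0546 and 0.0841 for replicates 1 and 2). The annotation places an antisense gene, Gm44851, over 118 exon bases of Furin, and the labels do not state whether counting used the strand.

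Pcsk6 (ENSMUSG00000030513, chromosome 7, 65861734 to 66050386, plus strand), the other convertase known to cleave Nodal, had 29.9 and 21.8 CPM in PDGFRa-only, 37.1 and 30.2 CPM in double-positive and 42.5 and 42.3 CPM in PECAM1-only libraries. These steps were small beside those of Furin. The gene was lower in PDGFRa-only than in PECAM1-only cells (log2 fold change -0.73, SE 0.21, adjusted p = 0.00445, edgeR), a call that did not hold once replicate 2 of PDGFRa-only was omitted (-0.50, adjusted p = 0.0568). Between double-positive and PECAM1-only cells the log2 fold change was -0.33 (95% interval -0.75 to 0.08, adjusted p = 0.2, edgeR), and it did pass when scaled by the upper quartile (-0.50, adjusted p = 0.0495) or by library size only (-0.55, adjusted p = 0.0324). For PDGFRa-only over double-positive it was -0.40 (95% interval -0.83 to 0.04, adjusted p = 0.202, edgeR). A protein-coding gene model, Gm45213, shares 156 exon bases with Pcsk6 on the same strand.

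Of the receptors, Acvr1b (ENSMUSG00000000532, chromosome 15, 101174067 to 101213684, plus strand) encodes the type I activin receptor ALK4. It had 71.2 and 71.2 CPM in PDGFRa-only, 68.1 and 66.0 CPM in double-positive and 38.4 and 52.7 CPM in PECAM1-only libraries. Both fractions of PDGFRa-positive cells were higher than the PECAM1-only fraction, with log2 fold changes of 0.64 (SE 0.18, adjusted p = 0.00478) and 0.56 (SE 0.18, adjusted p = 0.0193) by edgeR. Omitting PECAM1-only replicate 1 ended the first of these calls (0.45, adjusted p = 0.106), as did scaling by library size only (0.36, adjusted p = 0.0966). The second call ended in 3 of 6 fits that left out a library, at an adjusted p of 0.247 for PECAM1-only replicate 1 and of 0.0814 and 0.0685 for the double-positive libraries 1 and 2. It also ended at 0.34 (adjusted p = 0.132) when scaled by library size only, at 0.39 (adjusted p = 0.0898) when scaled by the upper quartile, and in DESeq2 (adjusted p = 0.0636). PDGFRa-only over double-positive gave 0.09 (95% interval -0.29 to 0.46, adjusted p = 0.792, edgeR).

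Acvr2b (ENSMUSG00000061393, chromosome 9, 119402118 to 119434995, plus strand), a type II activin receptor gene, had the reverse order. It had 4.94 and 5.74 CPM in PDGFRa-only, 9.60 and 10.3 CPM in double-positive and 11.6 and 16.3 CPM in PECAM1-only libraries. The PDGFRa-only level was 2.58-fold lower than the PECAM1-only level (log2 fold change -1.37, SE 0.29, adjusted p = 0.000348, edgeR). The difference of PDGFRa-only from double-positive cells (log2 fold change -0.89, SE 0.30, adjusted p = 0.0442, edgeR) was lost in each of the 6 fits without a library, at adjusted p of 0.0501 to 0.188, and with DESeq2 (adjusted p = 0.171). Between double-positive and PECAM1-only cells it was -0.48 (95% interval -1.03 to 0.06, adjusted p = 0.154, edgeR), and -0.699 (adjusted p = 0.0362) when scaled by library size only.

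The genes of the secreted inhibitors Lefty1 (ENSMUSG00000038793, chromosome 1, 180935022 to 180938400) and Lefty2 (ENSMUSG00000066652, chromosome 1, 180893108 to 180899103) lie next to each other on the plus strand. Their coding sequences were identical at 92.7% of 1084 aligned bases, with a longest identical stretch of 140 bases, so some reads of one may be counted for the other.

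Lefty1 had 0 and 7 counts in PDGFRa-only, 16 and 27 in double-positive and 36 and 33 in PECAM1-only libraries, or 0 and 1.06, 2.52 and 4.22, and 5.24 and 5.17 CPM. A count of 0 in PDGFRa-only replicate 1 allows up to 0.673 CPM. The log2 fold change between PDGFRa-only and PECAM1-only was -3.03 (SE 0.62, adjusted p = 0.000257, edgeR), and -2.26 when PDGFRa-only replicate 1 was omitted (adjusted p = 0.000763). Without replicate 2 only the library at 0 was left, and it was at least 7.73-fold lower than the PECAM1-only mean. Set against double-positive cells, the PDGFRa-only log2 fold change was -2.41 (SE 0.66, adjusted p = 0.0142, edgeR), and the call ended when PDGFRa-only replicate 1 (-1.65, adjusted p = 0.0545) or double-positive replicate 2 (-1.99, adjusted p = 0.104) was omitted. PDGFRa-only replicate 1 taken alone, at 0 counts, was at least 5.01-fold lower than the double-positive mean. Both bounds are for that library only and do not cover replicate 2, which had 1.06 CPM. Between double-positive and PECAM1-only cells it was -0.62 (95% interval -1.57 to 0.32, adjusted p = 0.298, edgeR).

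Lefty2 had 1.12 and 2.12 CPM in PDGFRa-only, 3.62 and 3.75 CPM in double-positive and 3.79 and 4.39 CPM in PECAM1-only libraries, from 5 to 28 counts. Its double-positive mean was 90.2% of the PECAM1-only mean, where that of Lefty1 was 64.7%. The log2 fold change between PDGFRa-only and PECAM1-only was -1.26 (SE 0.45, adjusted p = 0.0216, edgeR). This call ended when PDGFRa-only replicate 1 (-0.93, adjusted p = 0.117) or either PECAM1-only library (adjusted p of 0.0515 and 0.0983 for replicates 1 and 2) was omitted, and in DESeq2 (adjusted p = 0.106). For PDGFRa-only over double-positive it was -1.12 (95% interval -2.08 to -0.16, adjusted p = 0.101, edgeR), and between double-positive and PECAM1-only -0.15 (95% interval -0.97 to 0.68, adjusted p = 0.809, edgeR). With the 2 Lefty genes summed, there were 5 and 21, 39 and 51, and 62 and 61 counts in the 3 fractions, and the log2 fold changes were -2.01 between PDGFRa-only and PECAM1-only (adjusted p = 0.00015, edgeR), -0.40 between double-positive and PECAM1-only (adjusted p = 0.364, edgeR) and -1.61 for PDGFRa-only over double-positive (adjusted p = 0.00764, edgeR).

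Pmepa1 (ENSMUSG00000038400, chromosome 2, 173224458 to 173276533, minus strand) encodes a membrane protein that TGF-beta signalling induces and that binds SMAD2 and SMAD3 to dampen the signal. It had 240.0 and 201.1 CPM in PDGFRa-only, 138.8 and 137.4 CPM in double-positive and 21.0 and 22.9 CPM in PECAM1-only libraries. As with Furin, the 4 libraries of PDGFRa-positive cells stood above both others. The PECAM1-only mean was 9.94% of the PDGFRa-only mean (PDGFRa-only over PECAM1-only log2 fold change 3.33, SE 0.18, adjusted p = 1.73e-12, edgeR), and the double-positive level was 6.3-fold higher than the PECAM1-only level (log2 fold change 2.65, SE 0.18, adjusted p = 1.11e-10, edgeR). PDGFRa-only exceeded double-positive cells by a log2 fold change of 0.67 (SE 0.16, adjusted p = 0.00498, edgeR), which did not pass without double-positive replicate 1 (adjusted p = 0.0538) or 2 (adjusted p = 0.0581).

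**Figure D3:**
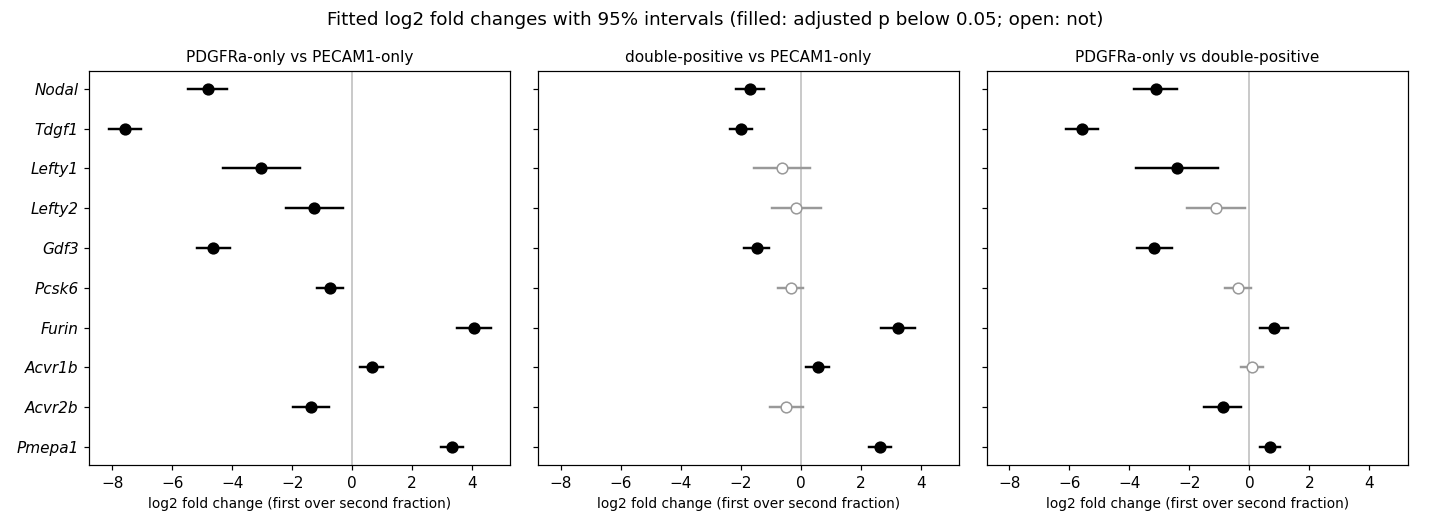
Fitted log2 fold changes (horizontal axis, first named fraction over the second) with 95% intervals for the 10 genes in the 3 comparisons; filled points passed an adjusted p of 0.05 and open points did not. Tdgf1 lies farthest to the left, at -7.58, and Furin farthest to the right, at 4.07, both between PDGFRa-only and PECAM1-only.

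Levels of different genes can be compared per length of exon sequence. In CPM per kilobase of merged exons, Tdgf1 ranked first in the PECAM1-only fraction (188 ± 23.3, SD, n = 2), followed by Gdf3 (29.5 ± 2.33) and Nodal (21.0 ± 0.495), with Furin last (0.963 ± 0.420). The level of Tdgf1 can depend on how reads were split between it and Tdgf1-ps1. That shorter pseudogene, not ranked here, had 564 and 665 CPM per kilobase in the PECAM1-only libraries, against 172 and 205 for Tdgf1. In the PDGFRa-only fraction Pmepa1 ranked first (44.8 ± 5.59), followed by Furin (16.1 ± 5.44) and Acvr1b (16.1), which did not differ beyond their spread. Nodal ranked 8th there, at 0.788 ± 0.400, with Lefty2 at 0.620 ± 0.269 and Lefty1 at 0.300 ± 0.425. These last 3 overlapped. In the double-positive fraction Tdgf1 (47.2 ± 1.48), Pmepa1 (28.1 ± 0.212) and Acvr1b (15.2 ± 0.354) led, and Nodal (6.55 ± 0.290) and Pcsk6 (6.49 ± 0.948) did not differ beyond their spread. The order depends on the gene length used: in the authors' RPKM values of the PECAM1-only libraries Nodal (43.5 and 42.6) stood above Gdf3 (35.5 and 34.3), and Acvr2b (19.0 and 23.0) above Acvr1b (12.4 and 15.6), Pcsk6 (14.4 and 13.9) and Pmepa1 (8.12 and 8.25). In the RPKM values of the PDGFRa-only libraries, Furin (27.3 and 18.2) stood above Acvr1b (16.2 and 16.6).

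Promoter sequence from RefSeq (GRCm38.p6) was available for Nodal, Tdgf1, Pcsk6, Furin (2 start sites), Acvr1b and Acvr2b. The 250 bases before the start site are shown for the ligand gene Nodal and the co-receptor gene Tdgf1, both lower in PDGFRa-only than in PECAM1-only cells. They lie at chr10:61417722-61417971 (plus strand) and chr9:110946159-110946408 (minus strand), with matches to the SMAD box CAGAC in capitals:
Nodal: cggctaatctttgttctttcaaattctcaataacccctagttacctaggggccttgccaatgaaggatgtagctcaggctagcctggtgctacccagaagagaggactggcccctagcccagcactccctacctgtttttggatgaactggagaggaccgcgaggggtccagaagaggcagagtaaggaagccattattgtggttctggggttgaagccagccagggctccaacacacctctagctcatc
Tdgf1: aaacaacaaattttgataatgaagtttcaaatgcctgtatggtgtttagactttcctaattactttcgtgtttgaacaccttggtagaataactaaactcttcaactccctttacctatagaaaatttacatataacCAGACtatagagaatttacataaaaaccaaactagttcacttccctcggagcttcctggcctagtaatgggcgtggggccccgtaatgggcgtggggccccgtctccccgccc
On both strands, CAGAC was found at 1 place in each of the Tdgf1, Acvr2b and downstream Furin windows and at 2 places in the upstream Furin window, and 42.2% of all 32851 promoter windows of this length held it. The SMAD palindrome GTCTAGAC (0.167% of windows), which does not contain CAGAC, the FOXH1 sequences TGTGGATT (0.718%) and TGTGTATT (0.895%) and the octamer ATTTGCAT (1.6%), which POU5F1 binds, were in none of the 7 windows searched. A match is a description of these letters only.

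A list of 44 other genes of the Nodal, activin and TGF-beta pathway was read beside the members. Of the 31 with enough counts to be tested, 13 were higher and 10 lower in PDGFRa-only than in PECAM1-only cells, where 30.1% and 28.8% of all tested genes were. Between double-positive and PECAM1-only cells 11 were higher and 6 lower (21.8% and 16.4% of all tested genes), and between PDGFRa-only and double-positive cells 3 were higher and 6 lower (5.94% and 11.7%). Their median log2 fold change was -0.03, 0.02 and -0.0074. The other 13 had too few counts over the 6 libraries: the ligand genes Inhba (0), Gdf1 (0), Tgfb1 (24), Tgfb2 (24) and Tgfb3 (41), the receptor genes Acvr1c (4) and Cfc1 (2), the inhibitor genes Fstl3 (26) and Cer1 (1), and the mesendoderm genes T (2), Gsc (2), Mixl1 (15) and Fgf8 (1).

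Of the ligand genes, Inhbb, which encodes the subunit of activin B, was lower in PDGFRa-only cells. It had 0 counts in both PDGFRa-only libraries, 2.83 and 3.29 CPM in the double-positive and 14.0 and 16.9 CPM in the PECAM1-only libraries, at least 57.1-fold lower than in PECAM1-only and at least 11.3-fold lower than in double-positive cells against a floor of 3 counts over the fraction. The inhibin subunit gene Inha did not pass, at 1.35 and 2.27, 0.944 and 1.41, and 1.17 and 2.51 CPM. The gene of follistatin, Fst, which binds and neutralises activin, went the other way. Fst had 131.6 and 95.3 CPM in PDGFRa-only, 78.4 and 70.1 CPM in double-positive and 0.873 and 0.470 CPM in PECAM1-only libraries, with log2 fold changes of 7.34 (SE 0.32, adjusted p = 6.31e-14) for PDGFRa-only and 6.73 (SE 0.32, adjusted p = 5.88e-13) for double-positive over PECAM1-only by edgeR. The inhibitor genes Dand5 and Bambi, tested in the same list, passed in no comparison and stayed between 0.939 and 3.14 CPM.

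Among 5 receptor genes tested, 4 were higher and 0 lower in PDGFRa-only than in PECAM1-only cells (30.1% and 28.8% of all tested genes). Tgfbr2, the type II receptor of TGF-beta itself, had 84.2 and 77.5 CPM in PDGFRa-only, 48.8 and 50.1 CPM in double-positive and 0.873 and 0.784 CPM in PECAM1-only libraries (log2 fold changes over PECAM1-only of 6.57, adjusted p = 6.31e-14, and 5.86, adjusted p = 1.02e-12, edgeR). The co-receptor gene Tgfbr3 rose by 3.50 and 3.02 on the log2 scale in the same comparisons (adjusted p = 4.22e-10 and 1e-08, edgeR), and the type I receptor gene Acvr1 by 2.001 and 1.503 (adjusted p = 2e-07 and 2.34e-05, edgeR). Acvr2a, a type II activin receptor gene like Acvr2b, was 0.60 higher in PDGFRa-only than in PECAM1-only cells (SE 0.20, adjusted p = 0.0142, edgeR), where Acvr2b was lower; the call on Acvr2a ended when scaled by the upper quartile (adjusted p = 0.0966) or library size only (adjusted p = 0.181), in DESeq2 (adjusted p = 0.0598), and when replicate 2 of PDGFRa-only (adjusted p = 0.0909) or of PECAM1-only (adjusted p = 0.122) was omitted. Both convertase genes beyond the members were higher in PDGFRa-only than in PECAM1-only cells: Pcsk7 by 1.77 (SE 0.29, adjusted p = 2.07e-05, edgeR) and Pcsk5, with 10 and 9 counts in PDGFRa-only and 3 and 2 in PECAM1-only libraries, by 2.15 (SE 0.77, adjusted p = 0.0206, edgeR). The Pcsk5 call ended when PDGFRa-only replicate 1 (adjusted p = 0.104) or either PECAM1-only library (adjusted p of 0.0779 and 0.114 for replicates 1 and 2) was omitted, and in DESeq2 (adjusted p = 0.118).

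Of 13 signal transducers and partners, 3 were higher and 7 lower in PDGFRa-only than in PECAM1-only cells, beside the same 30.1% and 28.8% of all tested genes. The genes of the 2 receptor-activated SMAD proteins of this pathway moved apart: Smad2 had 143.9 and 176.6 CPM in PDGFRa-only and 87.8 and 86.1 CPM in PECAM1-only libraries (log2 fold change 0.88, SE 0.16, adjusted p = 7.89e-05, edgeR), while Smad3 had 4.94 and 6.04 CPM against 19.1 and 20.9 CPM (-1.84, SE 0.27, adjusted p = 4.41e-06, edgeR). The genes of 2 proteins that repress SMAD-dependent transcription were lower in PDGFRa-only than in PECAM1-only cells, Tgif1 by a log2 fold change of -1.92 (SE 0.18, adjusted p = 9.49e-09, edgeR) and Skil by -1.34 (SE 0.18, adjusted p = 1.84e-06, edgeR). Of 6 tested genes listed as targets of Nodal signalling, 3 were higher and 2 lower, again beside 30.1% and 28.8%. Foxa2, an endoderm transcription factor gene, had 35.7 and 35.5 CPM in PDGFRa-only, 18.1 and 23.0 CPM in double-positive and 0 counts in both PECAM1-only libraries, at least 157-fold higher in PDGFRa-only and at least 90.7-fold higher in double-positive than in PECAM1-only cells, against a floor of 3 counts over the fraction. Hhex rose by 1.004 (SE 0.29, adjusted p = 0.00466, edgeR) in PDGFRa-only over PECAM1-only cells. Ccnd1, a cyclin gene, had a log2 fold change of -5.82 (SE 0.35, adjusted p = 1e-11, edgeR), or of -6.64 and -5.11 when PDGFRa-only replicate 1 or 2 was omitted. Ltbp1, which encodes a binding protein of latent TGF-beta, had -2.96 (SE 0.38, adjusted p = 8.62e-07, edgeR) in the same comparison.

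**Figure D4:**
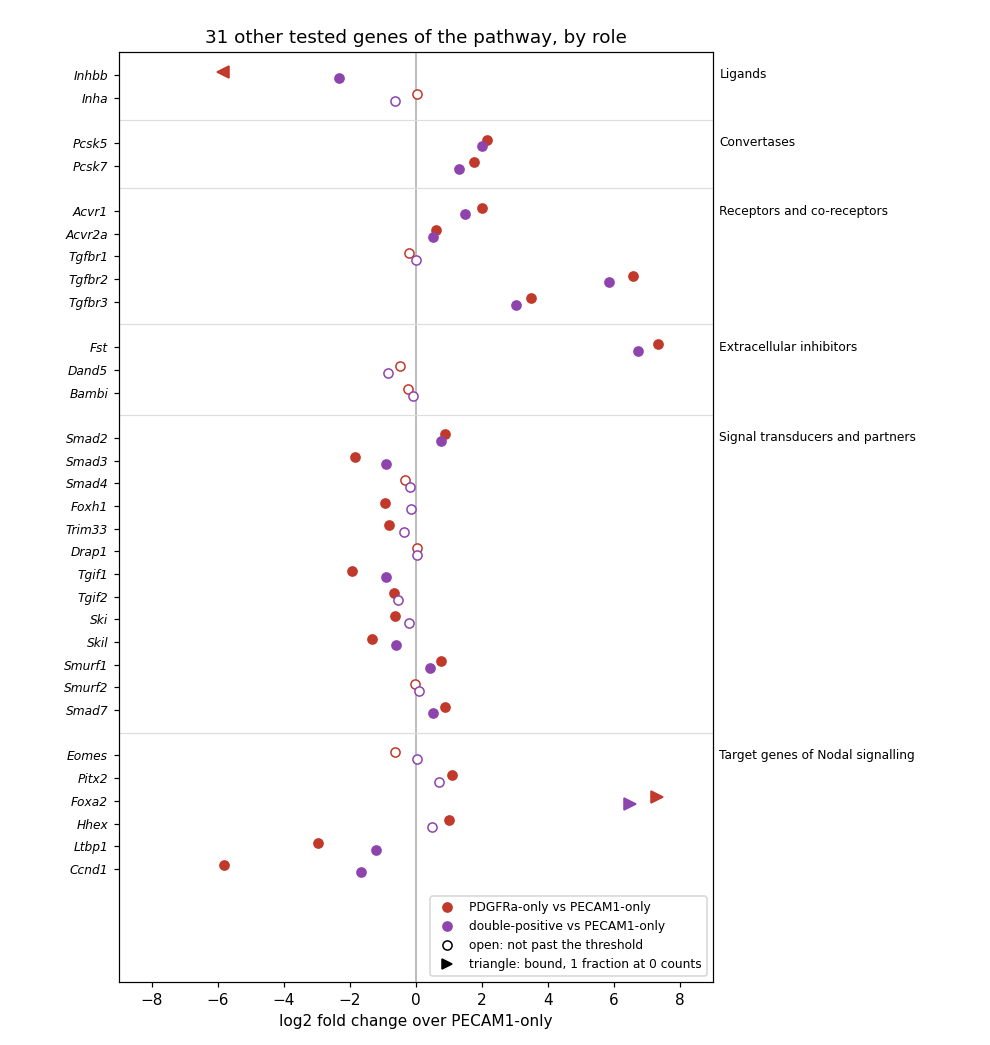
Log2 fold changes (horizontal axis) over the PECAM1-only fraction of the 31 other pathway genes tested, grouped by role, for PDGFRa-only and double-positive cells; open points did not pass the threshold and triangles are bounds where a fraction had 0 counts. Fst and Tgfbr2 lie farthest to the right among genes with counts in all fractions, at 7.34 and 6.57, and Ccnd1 farthest to the left, at -5.82.

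Genes with the pattern most like that of a member were ranked by Euclidean distance between centred log2(CPM + 1) values over the 6 libraries, among 10424 tested genes of at least 5 CPM on average. Nearest to Nodal were AC132389.1 (distance 0.228), Tenm3 (0.229), Nefh (0.321) and Gse1 (0.333), with Gdf3 the nearest member at rank 122 (0.950). Acvr2b followed at rank 1115 (2.99) and Tdgf1 at rank 1494 (3.25). Nearest to Tdgf1 were Fgf4 (0.619), Nanog (0.666), Cobl (0.705) and Tenm4 (0.922), and among the members Gdf3 at rank 92 and Nodal at rank 107. Nearest to Pmepa1 were Rcn1 (0.149), 1700025G04Rik (0.168), Msl3 (0.202) and Pdk2 (0.227), and Furin was the nearest member at rank 338 (0.930). Lefty1 and Lefty2 were under the minimum level and were not ranked.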

How the data were processed

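RNA of 6 libraries was counted per Ensembl gene by the authors; the deposited count table holds raw, unnormalised counts. Per the submitters' processing notes, HTSeq 0.5.4p3, TopHat2 2.0.8b, Bowtie2 2.1.0 and cutadapt 1.2.1 were used with GRCm38; their roles are not stated. The deposited RPKM table (16105 genes, none at 0), preprocessed by the authors in a way not stated, served only as an alternative, as log2(RPKM + 1) in limma 3.58.1.

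Counts were tested with edgeR 4.0.16 (R 4.3.3): filterByExpr with a minimum count of 10, TMM scaling, a robust quasi-likelihood fit of 3 fraction means to 6 libraries (3 residual degrees of freedom), two-sided tests, Benjamini-Hochberg adjustment over 13909 genes, threshold 0.05. SE is the absolute log2 fold change over the square root of F. DESeq2 1.42.0, other scalings and filters, omitted libraries and summed copies were alternatives. The fit was run on simulated data in which few genes changed, and only in PDGFRa-only. That run does not test the fit where 59.0% of genes pass. Replicates differed beyond sampling noise, most of all in PDGFRa-only (chi-square per degree of freedom 25.5, against 5.27 in double-positive and 5.5 in PECAM1-only). The fit pooled the spread of the 3 fractions. Same-numbered libraries did not deviate together in every pair of fractions.

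Positions and exon lengths came from GENCODE M21 (36639 identifiers matched), and copies were searched with blastn 2.17.0 and aligned with Biopython 1.88. Amplified reads carry no molecular identifiers, so the floor of 3 counts for a count of 0 covers counting error only. All members were named; of each role list, up to 4 tested genes with the smallest p between PDGFRa-only and PECAM1-only and all untested genes; and the 4 genes most like Nodal, Tdgf1 and Pmepa1. Members and lists were chosen with earlier results of these data known.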

Additional observations from a re-analysis of the deposited data

How the results depend on the processing

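Nodal, Tdgf1 and Gdf3 kept their direction and their call in all 3 comparisons under every alternative run, as did Furin and Pmepa1 against PECAM1-only. Between PDGFRa-only and double-positive the count of members passing was 7, and 3 with the authors' RPKM table; that of other pathway genes was 9, and 3 with RPKM; and that of all genes was 2450, and 785 with RPKM, whose preprocessing is not stated. Leaving out 1 library gave 3 to 6 members, 5 to 12 other pathway genes and 1326 to 2945 genes there. The lowest of these came without double-positive replicates 2 (3 members, 1444 genes) and 1 (4 members, 1326 genes), where the lone library is assumed to vary like the other fractions. Acvr1b between PDGFRa-only and double-positive changed sign with RPKM (-0.13, adjusted p = 0.631, limma), and neither value passed. The cause was not tested. Upper-quartile and library-size scaling moved the median log2 fold change of all genes to -0.20 and -0.28 between PDGFRa-only and PECAM1-only and to -0.17 and -0.22 between double-positive and PECAM1-only, relative to which the small changes of Acvr1b, Acvr2b and Pcsk6 should be read. A fit with the replicate number as a block called 10, 6 and 7 members, 23, 19 and 11 other pathway genes (23, 17 and 9 without the block) and 8397, 5644 and 2834 genes in the 3 comparisons, and it changed no call of a member. Libraries of the same number correlated in their deviations at -0.0289, 0.183 and 0.132. The labels do not say whether an Exp number marks a shared culture or sort, so pairing is unknown. Lefty1 and Lefty2 had at most 36 counts per library, and the part of depth in their calls was not tested.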
